A study of Mus musculus with 4 samples.

Results

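Mouse bone marrow cells that carried JAK2V617F, the activated form of the tyrosine kinase JAK2, were given ruxolitinib, an inhibitor of JAK1 and JAK2, or were left as control, and the RNA of both was compared. The comparison took the Tet2 wild-type library with ruxolitinib against the Tet2 wild-type control library, over 10234 of the 24340 genes in the deposited table. These were the genes whose mean reached 1 FPKM (fragments per kilobase of transcript, scaled to 1000000 fragments per library) over the 4 libraries of the series, after 237 small RNAs had been left out. Each difference is a log2 ratio of FPKM + 1, ruxolitinib over control, so a negative value means less RNA in the drug library. Each group had 1 library, so the differences have no check against replicates and carry no p-value. Where 4 values are given for a gene, the first pair is Tet2 wild type and the second Tet2 knockout, with the control before ruxolitinib in each.

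The 4 libraries came from C57BL/6 mice. They were JAK2V617F;Tet2+/+ control, JAK2V617F;Tet2+/+ with ruxolitinib, JAK2V617F;Tet2-/- control and JAK2V617F;Tet2-/- with ruxolitinib, all from marrow cells sorted as Lin-cKit+, that is without markers of mature lineages and with the receptor Kit on their surface. All 4 groups therefore carried the mutant kinase, and the control is a JAK2V617F library, not one without the mutation. The series' design text says that extracted marrow cells were treated with the drug, and it describes mice with conditional inactivation of Tet2 and a Flt3ITD cross, whereas the sample labels name JAK2V617F. Drug dose, time of exposure, the promoter driving Cre, the animals' age and whether animals were pooled are not stated in the labels or the design text. RNA was taken from many cells at once, so a smaller share of one kind of cell and less RNA per cell cannot be told apart.

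JAK2 sits under the receptors for erythropoietin, thrombopoietin, interleukin-3 and related cytokines. It phosphorylates the STAT transcription factors, which then enter the nucleus and bind DNA, often at the palindrome TTCNNNGAA. Their targets include Cish and the SOCS genes, whose products bind receptor or kinase and damp the signal, and the Pim kinases, which support survival. JAK2 also feeds the Ras and MAP kinase pathway, whose short-lived readouts are the immediate early genes such as Fos and Egr1.

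Promoter sequences are shown first for some of the genes that differed. They were chosen because a window of each holds a motif, so they do not show how common the motifs were. Of the 55 genes at least 2-fold lower that had a window, 9 held the STAT motif (16.4%). The share was 8.39% over measured genes (668 of 7961) and 11.8% over genes 1.5-fold higher (4 of 34). Whether a motif had a part in any difference was not tested. Cish, Socs3, Serpina3g and Tnfrsf9 were among the lowest genes with the drug, Egr2 led the immediate early genes, and Bcl6 was higher. Each run is the 250 bases before a RefSeq transcription start and the first 20 bases of the transcript (GRCm38.p6), 5′ to 3′ on the gene's strand. Capitals mark the STAT motif TTCNNNGAA, or in Egr2 the CArG box, the sequence bound by serum response factor. The windows are chr9:107296409-107296678 on the plus strand for Cish, chr11:117969347-117969616 on the minus strand for Socs3, chr12:104235897-104236166 on the plus strand for Serpina3g and chr4:150927749-150928018 on the plus strand for Tnfrsf9. Egr2 and Bcl6 each have more than one start with a motif. For Egr2 the window chr10:67537619-67537888 on the plus strand is shown. For Bcl6 it is the window at the 5′ end of the gene, chr16:23988833-23989102 on the minus strand.
Cish: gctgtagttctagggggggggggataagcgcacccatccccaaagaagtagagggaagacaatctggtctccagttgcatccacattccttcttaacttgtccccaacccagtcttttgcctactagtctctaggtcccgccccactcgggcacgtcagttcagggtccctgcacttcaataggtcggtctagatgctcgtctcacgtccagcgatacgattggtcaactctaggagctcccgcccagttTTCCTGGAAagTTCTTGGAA
Socs3: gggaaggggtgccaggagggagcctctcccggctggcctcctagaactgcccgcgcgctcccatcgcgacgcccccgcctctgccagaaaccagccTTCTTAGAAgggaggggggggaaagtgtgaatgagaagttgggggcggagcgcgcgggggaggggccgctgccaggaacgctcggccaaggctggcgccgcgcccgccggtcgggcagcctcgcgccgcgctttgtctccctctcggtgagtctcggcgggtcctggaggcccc
Serpina3g: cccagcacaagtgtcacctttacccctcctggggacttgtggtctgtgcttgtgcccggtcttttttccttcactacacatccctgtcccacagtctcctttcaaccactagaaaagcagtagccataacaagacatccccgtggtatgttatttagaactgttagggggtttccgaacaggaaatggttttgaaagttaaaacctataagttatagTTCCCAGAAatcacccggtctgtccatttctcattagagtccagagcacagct
Tnfrsf9: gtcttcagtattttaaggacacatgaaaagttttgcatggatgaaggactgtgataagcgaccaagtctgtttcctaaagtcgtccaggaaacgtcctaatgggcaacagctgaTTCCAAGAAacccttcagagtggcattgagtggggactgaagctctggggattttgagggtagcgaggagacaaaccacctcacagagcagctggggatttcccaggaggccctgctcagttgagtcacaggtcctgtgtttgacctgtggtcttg
Egr2: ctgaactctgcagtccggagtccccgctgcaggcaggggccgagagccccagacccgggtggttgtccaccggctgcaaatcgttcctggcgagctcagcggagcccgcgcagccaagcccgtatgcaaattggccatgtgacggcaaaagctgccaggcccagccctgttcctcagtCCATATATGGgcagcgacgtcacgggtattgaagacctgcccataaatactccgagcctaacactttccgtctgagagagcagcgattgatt
Bcl6: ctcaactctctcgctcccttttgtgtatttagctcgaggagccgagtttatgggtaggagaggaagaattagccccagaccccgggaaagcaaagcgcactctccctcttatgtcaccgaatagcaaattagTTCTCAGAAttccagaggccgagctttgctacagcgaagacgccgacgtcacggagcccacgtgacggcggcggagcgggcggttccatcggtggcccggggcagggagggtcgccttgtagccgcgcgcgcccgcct

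The Cish window holds 2 STAT motifs, centred 4 and 15 bases after the RefSeq start. Both lie before the span deposited for Cish, chr9:107296689-107301961. The Bcl6 window holds 1, centred at position -114 from its start. A second Bcl6 start, inside the gene, has a window (chr16:23981264-23981533) with 3, at -164, -118 and -84. In Socs3, Serpina3g and Tnfrsf9 there is 1 each, centred at -150, -29 and -132. The Tnfrsf9 window lies inside the span deposited for that gene, chr4:150920155-150946102. The Serpina3g window lies inside a deposited span shared with Serpina3f, chr12:104214544-104241934. In the Egr2 window shown, the CArG box CCATATATGG is centred at -67. Windows of other Egr2 starts hold the same box at -68 and -128. The window chr10:67537316-67537585, of a start further 5′, holds another box, CCTTTTTTGG, also at -67. These were found by searching both strands of RefSeq windows of 300 bases (250 before and 50 after a start), taking a gene as holding a motif when any of its windows did.

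**Figure D1:**
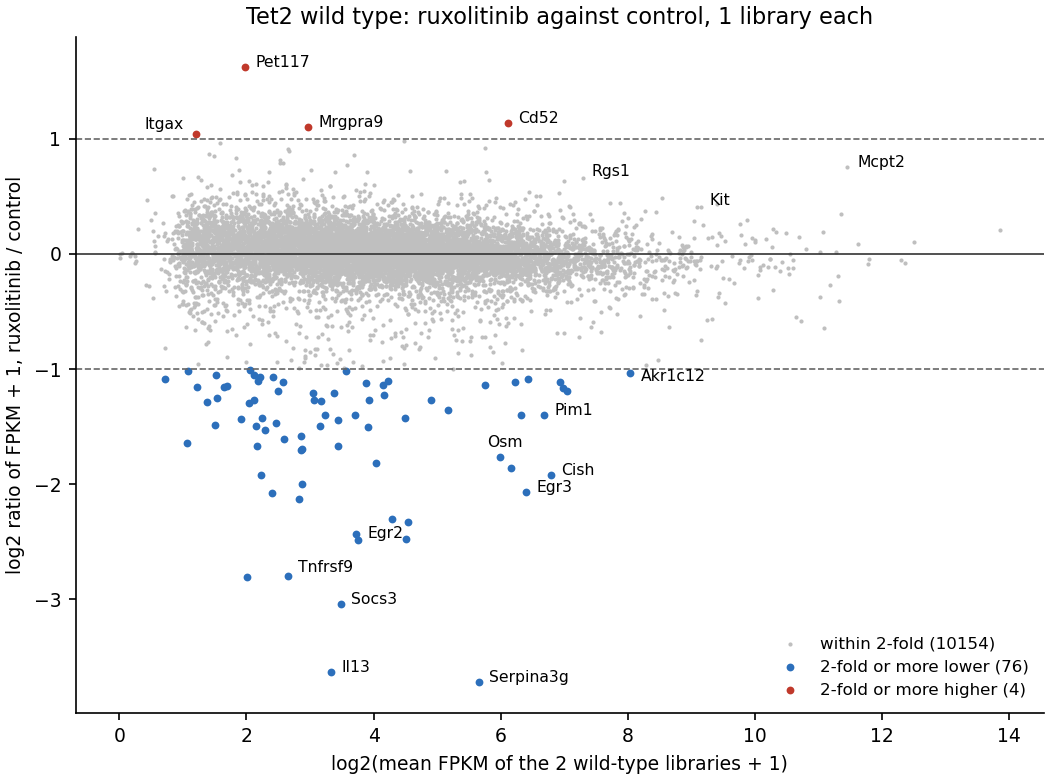
Log2 ratio of FPKM + 1, ruxolitinib over control in Tet2 wild type (vertical axis), against log2 of the mean FPKM + 1 of the 2 wild-type libraries (horizontal axis) for 10234 measured genes, 1 point per gene. Dashed lines mark 2-fold each way, with 76 genes (blue) on or below the lower line and 4 (red) on or above the upper one.

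Most genes sat at the same level in both libraries. Of the 10234 measured genes, 9981 (97.5%) differed by less than 1.5-fold, and the median log2 ratio was 0.01. The genes that moved further were mostly lower with the drug: 76 genes (0.743% of those measured) were at least 2-fold lower, and 4 (0.0391%) at least 2-fold higher. At 1.5-fold the counts were 203 lower (1.98%) and 50 higher (0.489%). At 4-fold there were 13 lower and 0 higher. The pseudocount sets these numbers in part: with 5 in place of 1, 36 genes were 2-fold lower and 1 higher, and with 0.1, 101 lower and 18 higher. After each library was rescaled to the same sum, 80 were lower and 12 higher. The plot of ratio against abundance shows this lopsided spread, with the largest drops at low to middle abundance. Of the 76 genes, 71 were protein-coding, 4 were long noncoding RNAs and 1, Tpsab1, was typed as a transcribed pseudogene. The lines drawn at 2-fold are arbitrary: Tmem51, at -0.997, lay just outside on the lower side, and on the upper side Itgax, at 1.05, lay just inside and Rsad1, at 0.98, just outside. In the authors' deposited table, 72 of the 76 genes had a q-value of at most 0.05, as had 409 lower and 241 higher measured genes in all; with 1 library a side that test compares those libraries and not the conditions. The 4 genes without it were Amd1, Gdap10, Glipr2 and Rnaset2a.

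The libraries gave like estimates of depth. The steps between their lowest values gave estimates of 44400000 to 55000000 fragments, and 10323 to 10375 genes reached 1 FPKM in each. The scaling between libraries is not stated, so these estimates may be scaled sizes and not numbers of fragments sequenced. The sorted label was checked against markers: the wild-type control held 487 FPKM of Kit and the drug library 647, 17 of 18 mast cell markers in the table were measured (the carboxypeptidase gene Cpa3 was listed at 0 in all 4 libraries), and the chymase gene Cma1 reached 13677 and 15834 FPKM. Of 11 granulocyte-monocyte progenitor markers 4 were measured, with Mpo at 0.038 and 0.0445 FPKM and Elane at 0 in both, and none of 11 mature neutrophil markers or 10 B cell markers was. The 11 neutrophil markers summed to 0.309 and 0.555 FPKM and the 10 B cell markers to 0.326 and 0.495. The sums of other marker lists were 882 and 724 FPKM for the 11 granulocyte-monocyte progenitor markers, mostly Calr, a chaperone of many cell types, and Ctsg. They were 1328 and 1537 for 12 stem and multipotent progenitor markers, mostly Ly6a and Cd34, and 1073 and 1190.0 for 13 megakaryocyte and platelet markers, led by Itga2b. The mast cell markers summed highest of these, at 28351 and 31974 FPKM, and Mpo and Elane were at or near 0. By these markers the libraries resembled mast cells more than granulocyte-monocyte progenitors, which the sorted label alone does not say. The wild-type libraries held the Y-linked Ddx3y (21.3 and 18.7 FPKM) and next to no Xist, and the knockout libraries the reverse, so genotype and sex cannot be told apart where the genotypes are set side by side. Tet2 RNA was at 4.69, 5.05, 3.62 and 4.39 FPKM, a value for the whole gene that cannot check the loss of an exon.

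The list counts that follow stand against all measured genes, of which 1.98% were 1.5-fold lower and 0.489% higher. The lists were written with earlier results of these data known, so they are no independent support. Receptors, kinases and STATs stayed under 1.5-fold, as did 97.5% of all measured genes. Of 18 measured cytokine receptor genes and 11 genes for Janus kinases and STATs, 0 were 1.5-fold lower or higher, and the medians were -0.05 and 0.08. Jak2 was at 36.8 FPKM without and 35.1 with the drug, and Jak1 at 71.4 and 75.3. Stat5a and Stat5b, the main STATs below JAK2, had log2 ratios of 0.13 and 0.21. Among those 18, the lowest ratio was that of Csf2rb2, the beta chain of the mouse interleukin-3 receptor, which was at 2034 FPKM in control and 1361 with the drug (-0.58). Csf2rb, the beta chain common to the interleukin-3, interleukin-5 and GM-CSF receptors, was at 1199 and 917 (-0.39). These paralogs are near-identical, so how reads were divided between them is uncertain. Kit had the highest ratio of the 18, at 0.41. Il5ra, the interleukin-5 receptor alpha chain, is not on the list and was past 1.5-fold, at 3.24, 6.33, 5.45 and 9.02 FPKM (0.79 in wild type).

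Among 24 genes that act as brakes on JAK signalling, 4 were at least 1.5-fold lower and 0 higher, and all 4 were of the CISH and SOCS family. Socs3, which blocks JAK2 and gp130 receptors, had the deepest drop of the family: its RNA measured 19, 1.43, 9.77 and 2.47 FPKM across the 4 libraries. Both drug libraries lay below both controls. For Cish (chr9:107296689-107301961, mm10) the 4 values were 174, 45.1, 114 and 40.7 FPKM, and for Socs1, a direct inhibitor of JAK kinases, 111, 29.99, 116 and 33.5. The wild-type log2 ratios of Socs3, Cish and Socs1 were -3.04, -1.93 and -1.86, and that of Socs2, a brake on growth hormone signalling, was -0.60. Socs4 to Socs7 lay between -0.32 and -0.02. Brakes outside the family ranged from -0.55 for the adaptor gene Dok2, at 10.6 and 6.95 FPKM, to 0.23. The phosphatase genes Ptpn2, Ptpn6 and Ptpn11 had ratios of -0.34, 0.06 and 0.03, the adaptor gene Sh2b3 (LNK) 0.08 and the lipid phosphatase gene Inpp5d (SHIP1) 0.23.

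Known STAT5 and cytokine target genes were lower as a group. Of 33 measured, 15 were at least 1.5-fold lower and 0 higher, 28 had negative ratios, and the median was -0.41 against 0.01 over all genes. The 15 include Cish, Socs1, Socs2 and Socs3, counted above as brakes, and Osm, Lif and Dusp5, counted again on lists below. The lists overlap, so their counts are not separate. All 3 Pim kinases were among the 15. Pim2 was at 12.6 FPKM in the control and 4.17 with the drug (-1.40), close to the ratio of Pim1 (-1.40), while Pim3 was at 10.5 and 6.51 (-0.62). Id1, an inhibitor of helix-loop-helix factors and a known STAT5 target, was at 2.69 and 0.514 FPKM. The survival gene Bcl2 was at 14.4 and 8.94 FPKM (-0.63), a larger difference than that of its relatives Bcl2l1 (-0.41) and Mcl1 (-0.12). Of the 14 measured BCL2 family genes, 2 were 1.5-fold lower, Bcl2 and the mitophagy gene Bnip3. The family's other measured death-promoting members ranged from -0.45 for Pmaip1 (NOXA) to 0.50 for Bik, with Bbc3 (PUMA) at 0.33, Bid at 0.40 and Bax at 0.01.

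Serpina3g (chr12:104214544-104241934), a serine protease inhibitor of the antichymotrypsin cluster, was the gene with the lowest ratio of all. It was at 92.4, 6.09, 51.7 and 4.22 FPKM across the 4 libraries. Both controls were high and both drug libraries low, with log2 ratios of -3.72 and -3.34. Its neighbour Serpina3f, which shares its locus and much of its sequence in the deposited table, was at 0.917 and 0.0317 FPKM in wild type, so reads could have been divided between the copies. Among 10 measured STAT3 and acute phase targets, 5 were 1.5-fold lower (Serpina3g, Fos, Junb, Vegfa and Nfil3) and 1 higher (Bcl6), some of them also on other lists, with a median of -0.76, or -0.08 over all 21 list members in the table when low genes were kept.

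Genes that STAT5 is known to repress were not higher as a group: of 9 measured, 1 was 1.5-fold lower and 1 higher. The higher one was Bcl6, the transcriptional repressor that competes with STATs for their motif. It was at 0.887, 2.44, 0.524 and 2.08 FPKM across the 4 libraries, so both drug libraries exceeded both controls at a low level. The lower one was Klf2, a factor of quiescent leukocytes, at 32 and 11.3 FPKM in wild type. Interferon-stimulated genes did not move by 1.5-fold in either direction in any of 33 measured members (median 0.08), nor did any of 13 MHC class I genes (median 0.13). Irf1, a transcription factor of the interferon response, had a ratio of 0.41.

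Secreted signals formed the next group. Of 22 measured cytokine and chemokine genes, 10 were at least 1.5-fold lower and 0 higher, with a median of -0.56. Il13 (chr11:53631323-53634702), a type 2 cytokine made by activated mast cells, was at 17.7, 0.5004, 5.05 and 1.34 FPKM across the 4 libraries. The wild-type control stood highest of the 4 libraries. Il4, its neighbour on the chromosome, was at 7.49 and 3.49 FPKM in wild type (-0.92), while Il6 was at 37.8 and 29.4 (-0.35). Of the chemokines, Ccl7, which attracts monocytes, was at 37.5, 5.9, 20.1 and 11.7 FPKM across the 4 libraries. Ccl1 was at 10.1 and 2.4 FPKM and Ccl3 at 7.16 and 1.94 in wild type. Ccl2, far more abundant than these at 489 and 384 FPKM, differed less (-0.35), so the chemokines did not share one size of difference.

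Of the cytokines that signal through gp130, Lif was at 24.1 FPKM in control and 9.7 with the drug (-1.23) and Osm had a ratio of -1.77, while Il6, given above, stayed under 1.5-fold. Among growth factors outside the lists, the EGF receptor ligands Hbegf and Tgfa also passed 2-fold. Hbegf was at 5.92 and 1.57 FPKM and Tgfa at 1.83 and 0.397. Tnf and the cytokine gene Csf1 stayed under 1.5-fold, with ratios of -0.55 and -0.40.

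Immediate early genes had the largest share of members 1.5-fold lower among the 42 pathway lists. Of 24 measured, 14 were at least 1.5-fold lower, against 1.98% of all measured genes, and 0 were higher. In 22 the ratio was negative, and the median was -0.69. Egr2 (chr10:67537869-67542188), a zinc finger factor, was at 21.8, 3.07, 4.32 and 3.63 FPKM across the 4 libraries. Egr3, a related factor, was the most abundant of the family, at 136, 31.6, 40.1 and 40.2 FPKM. In both genes the wild-type control stood apart, and the wild-type drug library lay near or below the 2 knockout libraries. The same order held for the nuclear receptor gene Nr4a1, at 37.8, 6.73, 8.46 and 7.99 FPKM.

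The AP-1 genes showed a range of sizes. Fosb and Fos had wild-type log2 ratios of -2.43 and -1.25, Junb was at 115 FPKM in control and 42.9 with the drug (-1.40), and Jun (-0.75) and Jund (-0.60) differed less. Egr1, the best known serum response gene of the list, was at 41.4, 16.6, 22.2 and 26.3 FPKM, and in the knockout pair the drug library was the higher one. Csrnp1 was at 21.4 and 6.88 FPKM in wild type. Outside the list, Nab2, a corepressor of the EGR factors, was at 26.7, 14.9, 17.7 and 19.5 FPKM. The chaperone gene Dnajb1 and the kinase gene Plk3 had wild-type ratios of -0.85 and -0.81, and knockout ratios of 0.02 and 0.13.

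**Figure D2:**
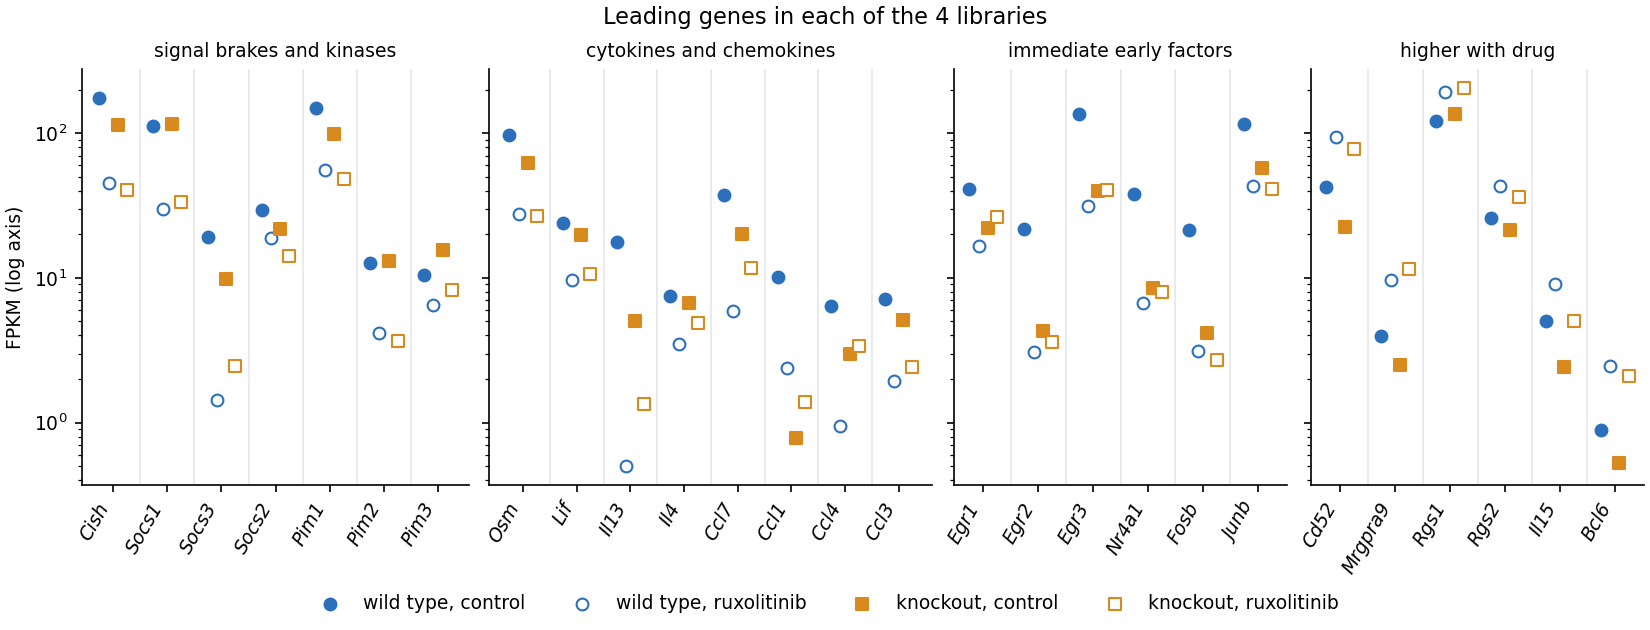
FPKM (log axis) of 27 leading genes in 4 groups, 1 point per library, with wild type as circles, knockout as squares, control filled and ruxolitinib open. Cish, Socs1 and Pim2 are low in both ruxolitinib libraries, whereas Egr2, Egr3 and Nr4a1 are high in the wild-type control library and lower in the other libraries.

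The wild-type control library was the highest of the 4 in 20 of the 24 immediate early genes, in 14 of the 22 cytokine and chemokine genes and in 21 of the 33 STAT5 and cytokine targets, against 19.98% of all measured genes. It was the highest of the 4 in 61 of the 76 genes that were at least 2-fold lower, which the choice of genes low in the other wild-type library favours. With 1 library a group, an effect of the drug on these genes and a high value of that control library for another reason cannot be told apart. The plot of leading genes by library shows both kinds of pattern.

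Feedback genes of the MAP kinase pathway were split. Of 19 measured, 3 were at least 1.5-fold lower and 0 higher, and the median was -0.12. Errfi1, an inhibitor of EGF receptor kinases, was at 10.7, 1.92, 1.01 and 0.861 FPKM across the 4 libraries. Its wild-type control was high and the other 3 libraries low. Phlda1 was at 24.6 and 6.25 FPKM in wild type, and Dusp5, a nuclear phosphatase for ERK, at 9.86 and 2.63. Dusp6, the cytoplasmic ERK phosphatase that is a common readout of ERK activity, was at 49.6 and 58.5 FPKM (0.23), and the Sprouty genes Spry2 and Spry4 had ratios of -0.10 and -0.42. The kinase gene Map3k8 (TPL2), on no list, was at 3.19 and 0.496 FPKM.

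Tnfrsf9 (chr4:150920155-150946102), the costimulatory receptor 4-1BB, was the fifth lowest gene. It was at 10.01, 0.581, 1.64 and 0.445 FPKM across the 4 libraries, so the wild-type control was several times the rest. Of 21 NF-kB regulators and targets, a pathway that acts below such receptors, 1 was 1.5-fold lower (Nfkbid) and 1 higher (Tnfaip2), with a median of -0.10, and the subunit genes Rela and Nfkb1 had ratios of 0.06 and -0.10. The related receptor gene Tnfrsf8 (CD30), just under 2-fold, was at 2.1, 0.598, 5.41 and 1.51 FPKM.

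Of the 76 genes at least 2-fold lower, 34 were on a pathway list and 42 on none. Several of the 42 encode enzymes. Tgm2, tissue transglutaminase, was at 10.5, 1.63, 0.559 and 0.975 FPKM across the 4 libraries, so it was high in the wild-type control alone among the 4. Tgm1, another transglutaminase, was at 11.8, 4.28, 12.9 and 4.78 FPKM, near-equal differences in both pairs. Car12, a carbonic anhydrase, measured 10.1, 2.45, 19 and 5.38 FPKM. Pcx, pyruvate carboxylase, was at 15 and 4.88 FPKM, and the aldo-keto reductase gene Akr1c12, of a family of near-identical copies, at 352 and 171. Usp17ld, a deubiquitinase of a multigene family, was at 7.59 and 1.04 FPKM, and counting between its copies is uncertain.

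Further genes among the 76, on a list or on none, are given by their values. Mycn, a relative of Myc, was at 15.6 FPKM in the control and 4.2 with the drug (-1.67), whereas Myc itself was at 64.2 and 57 (-0.17). Ikzf4 (EOS) was at 6.25 and 1.51 FPKM, and Nfil3, a basic leucine zipper factor, at 5.3 and 1.996. Nabp1, a single-stranded DNA binding protein of the damage response, was one of the more abundant of the 76, at 183 and 79.5 FPKM. Slfn2, which maintains leukocyte quiescence, was at 73.1 and 32.6. The receptor phosphatase gene Ptprg measured 50.6 and 19.1 FPKM, Lfng, which modifies Notch, 101 and 46.2, and the lectin gene Lgals3 116 and 54.1. The metallothionein gene Mt2 was at 174 and 77.3 FPKM (-1.16), and Mt1, under 2-fold, at 486 and 312 (-0.64). The long noncoding RNA Gm6093 was at 31.7, 5.61, 29.5 and 9.67 FPKM. Amd1, a polyamine enzyme gene, was at 2.17 and 0.0149 FPKM, but the copy Amd2, listed at the same locus, was at 2.9 and 5.39, so this pair is uncertain.

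**Figure D3:**
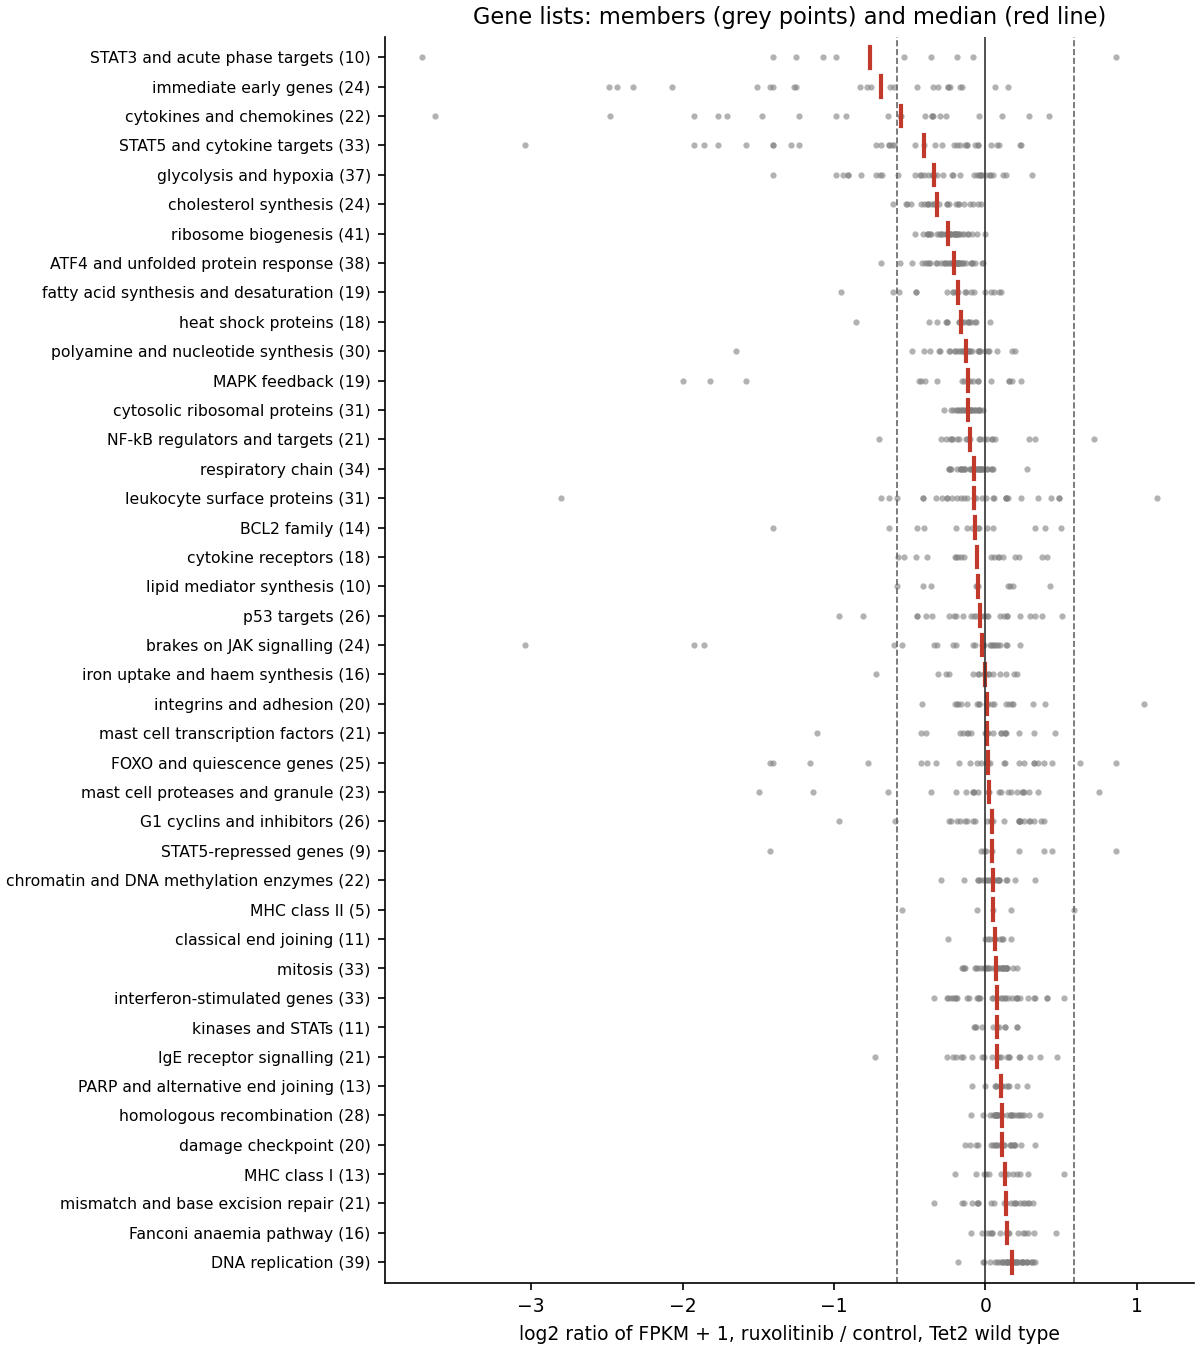
Log2 ratio (ruxolitinib over control, Tet2 wild type, horizontal axis) of each measured member of the gene lists, 1 point per gene, with the list median as a red line, the number measured in brackets and 1.5-fold each way dashed. Immediate early genes, cytokines and chemokines and STAT targets spread furthest to the lower side, while ribosome biogenesis, cholesterol synthesis and DNA replication genes shift by small amounts, mostly in one direction.

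Metabolic lists were shifted by smaller amounts. Of 37 measured glycolysis and hypoxia genes, 9 were at least 1.5-fold lower and 0 higher, 30 had negative ratios, and the median was -0.34. Those past 1.5-fold included Pfkl, a subunit of phosphofructokinase, at 27.6 FPKM in control and 15.2 with the drug, Hk2, an inducible hexokinase, at 9.87 and 5.58, Slc16a3, the lactate exporter MCT4, at 39.9 and 20.9, and Pdk1, which restrains pyruvate oxidation, at 6.35 and 2.84. The deposited locus of Pdk1 is shared by 8 genes, so its value is uncertain. Hypoxia targets did not all follow: Ddit4 was at 112 and 139.5 FPKM (0.31) and Kdm3a had a ratio of 0.14. The constitutive hexokinase gene Hk1 had a ratio of -0.03.

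All 24 cholesterol synthesis genes had negative ratios, with a median of -0.32, but 1, the feedback regulator Insig1 (74.8 and 48.8 FPKM), reached 1.5-fold. In fatty acid synthesis, 2 of 19 were 1.5-fold lower, Insig1 and the desaturase gene Scd1, the latter at 28.4 and 14.2 FPKM. In the list for ATF4 and the unfolded protein response all 38 were negative, with a median of -0.20. The 1 member past 1.5-fold was Xbp1, at 157 and 96.9 FPKM. All 41 ribosome biogenesis genes were negative too (median -0.24, 0 at 1.5-fold), as were all 31 cytosolic ribosomal protein genes (median -0.11, 0 at 1.5-fold). The nucleolar proteins Ncl and Npm1 had ratios of -0.32 and -0.22. The rate-limiting polyamine enzyme gene Odc1 was at 18.6 and 13.8 FPKM (-0.40). Tfrc, the transferrin receptor, was at 35.2 and 21 FPKM (-0.72). Rescaling each library to the same sum raised ratios by a median of 0.04, after which 23 of the 24 cholesterol, 36 of the 38 ATF4, 40 of the 41 ribosome biogenesis and 28 of the 31 ribosomal protein genes were negative. All members of a list were read from the same pair of libraries, so their common sign is not a count of independent observations.

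Cell cycle and repair lists were near even or slightly higher. Of 39 DNA replication genes, 36 were positive, with a median of 0.18, and of 28 homologous recombination genes 26 were positive with a median of 0.11. No member of either list reached 1.5-fold in either direction. Mcm2 and Mcm7, subunits of the replicative helicase, were at 44.6 and 54.1 FPKM and at 39.1 and 48.9. The mitosis list had a median of 0.07, and the lists for classical end joining, Fanconi anaemia, mismatch and base excision repair and damage checkpoint had medians of 0.07, 0.14, 0.14 and 0.11. Lig4, the ligase of end joining, had 2.18 FPKM in the control and 2.33 with ruxolitinib, and Parp1, a sensor of strand breaks, 37.7 and 39.4. Among 26 genes for G1 cyclins and their inhibitors, 2 were 1.5-fold lower, both inhibitors: Cdkn1a (p21), at 410.5 FPKM in control and 209 with the drug, and Cdkn2b (p15), at 5.11 and 3.05. The cyclin genes Ccnd2 and Ccnd3 had ratios of -0.12 and -0.07. Of 26 p53 targets 2 were lower, Cdkn1a and Plk3, and the median was -0.04.

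Mast cell genes were mostly level. Of 23 protease and granule genes, 3 were 1.5-fold lower and 1 higher, with a median of 0.03, and of 21 genes of IgE receptor signalling 1 was lower and 0 higher, with a median of 0.08. The receptor chain genes Fcer1a, Ms4a2 and Fcer1g had ratios of 0.10, 0.30 and -0.01. The 3 lower granule genes were Hdc, which makes histamine, at 12.2 FPKM in control and 3.68 with the drug, Tpsab1, a tryptase gene that the reference annotation types as a transcribed pseudogene, at 23.3 and 10.03, and Tph1, which makes serotonin, at 2642 and 1689. The higher one was the chymase gene Mcpt2, at 2085, 3518, 794 and 2043 FPKM across the 4 libraries. It was higher with the drug in both pairs. Summed over the 18 mast cell markers of the table, the level was 28351 FPKM in the control and 31974 with the drug. The signalling gene past 1.5-fold was Pik3cd, the leukocyte catalytic subunit of PI3 kinase, at 186 and 112 FPKM. Of 21 mast cell transcription factors, 1 was lower, the repressor Bhlhe40, at 167 and 76.6 FPKM, while Gata2 and Mitf had ratios of -0.12 and 0.05.

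The higher side was short and weak. Of the 50 genes at least 1.5-fold higher, 41 were protein-coding and 35 had less than 10 FPKM in the control. The 4 past 2-fold were Pet117, Cd52, Mrgpra9 and Itgax. Cd52, a small GPI-anchored glycoprotein of leukocytes, was at 42.3, 94.1, 22.4 and 77.5 FPKM across the 4 libraries. Mrgpra9, a Mas-related G protein-coupled receptor of a family with close copies, was at 3.98, 9.69, 2.49 and 11.5 FPKM. Itgax (CD11c), an integrin chain, was at 0.51, 2.12, 0.723 and 3.58 FPKM. In all 3 both drug libraries exceeded both controls, and Itgax stayed low throughout. Pet117, an assembly factor for cytochrome oxidase, went from 0.941 to 4.97 FPKM in wild type, but it shares its locus with Csrp2bp, at 12.8 and 13.3 FPKM, and its direction was opposite in the knockout.

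Some genes between 1.5-fold and 2-fold higher are given by their values. Rgs1 and Rgs2, which switch off G protein signalling, were at 121 and 192 FPKM and at 25.7 and 43. Adgrg1, an adhesion G protein-coupled receptor, was at 40.2 and 66.6 FPKM, Ramp1, a partner of the CGRP receptor, at 3.44 and 7.28, and Cx3cr1, the fractalkine receptor, at 7.82 and 14. The cytokine gene Il15 was at 5.05 and 9.05 FPKM. Pik3ip1, an inhibitor of PI3 kinase that FOXO factors are known to induce, was at 31.4 and 49 FPKM (0.62). Its deposited locus is shared by 9 genes and its test in the authors' comparison failed, so this value is uncertain. Of the 25 FOXO and quiescence genes, though, 4 were 1.5-fold lower and 2 higher, with a median of 0.02. Cx3cr1 and Lyz2 (2.41 and 4.15 FPKM) were also the 2 higher members of 5 measured monocyte and macrophage markers, of which Adgre1 (4.23 and 1.72 FPKM) was lower. Summed over the 14 such markers in the table the level was 55.2 FPKM in the control and 58.4 with the drug, and 9 of the 14 were below 1 FPKM in the control. Of 4 measured erythroid markers 2 were lower, Tfrc and the globin gene Hbb-bt (1.1 and 0.194 FPKM), and the 13 in the table summed to 72.6 FPKM in the control and 63.1 with ruxolitinib. The part of monocytes or red cell precursors in the results was not tested.

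**Figure D4:**
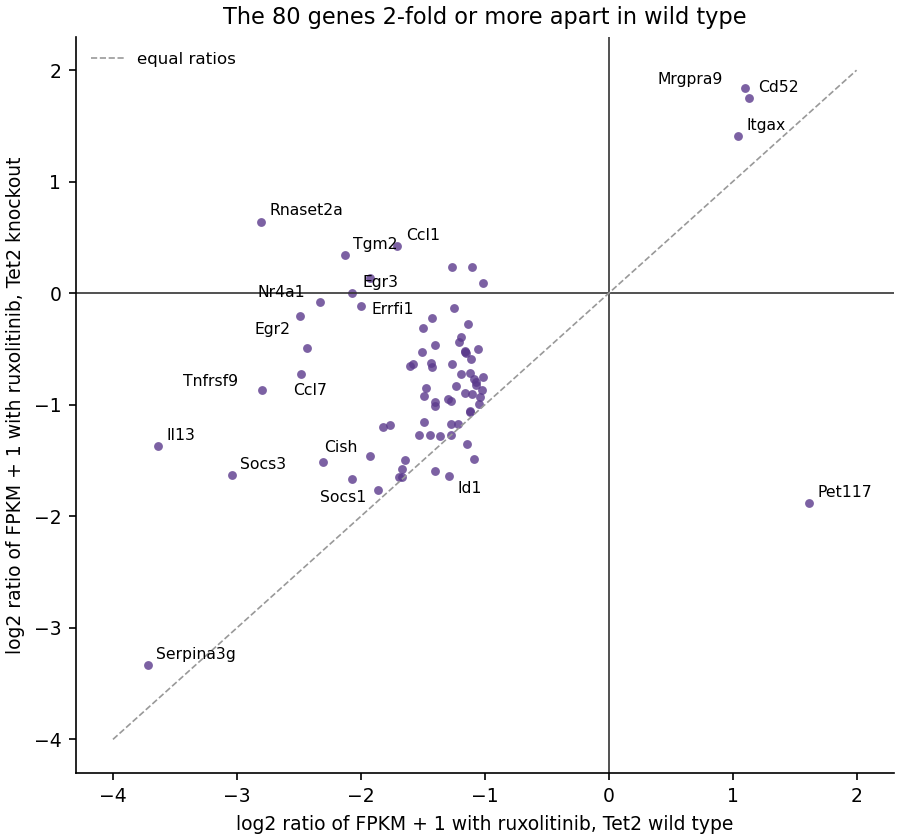
Log2 ratio of ruxolitinib over control in Tet2 wild type (horizontal axis) against the same ratio in Tet2 knockout (vertical axis), 1 point for each of the 80 genes at 2-fold or more in wild type, with the dashed line marking equal ratios. Serpina3g and Socs1 lie near that line, Egr3, Nr4a1 and Tgm2 lie far to the left near a knockout ratio of 0, and Pet117 and Rnaset2a lie in the quadrants of opposite direction.

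The knockout pair, which shares no library with the wild-type pair, was read beside it for the same genes. In that pair 36 genes (0.352%) were at least 2-fold lower and 18 (0.176%) higher, and 157 (1.53%) and 117 (1.14%) at 1.5-fold. Of the 76 genes that were 2-fold lower in wild type, 68 had a negative ratio in the knockout, 52 were 1.5-fold lower there and 27 were 2-fold lower. Their median ratio was -1.40 in wild type, where they had been chosen, and -0.84 in the knockout. Over all measured genes the median ratio in the knockout was 0.005. Of the 50 genes 1.5-fold higher in wild type, 47 were positive in the knockout pair and 31 were 1.5-fold higher. No test of the difference between genotypes can be made from 1 library each.

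Single genes ranged from near-equal to unlike between the pairs, as the plot of one ratio against the other shows. Ratios were close for Serpina3g (-3.72 and -3.34 in wild type and knockout), Socs1 (-1.86 and -1.76), Mycn (-1.67 and -1.58), Car12 (-1.69 and -1.64) and Pim2 (-1.40 and -1.59). They were far apart for Egr3 (-2.07 and 0.00), Nr4a1 (-2.33 and -0.07), Egr2 (-2.49 and -0.20) and Tgm2 (-2.13 and 0.34), in each of which the knockout control was lower than the wild-type control. By list, the immediate early genes had 14 of 24 members 1.5-fold lower in wild type and 1 in the knockout, with medians of -0.69 and -0.06. The STAT5 and cytokine targets had medians of -0.41 and -0.26, and ribosome biogenesis of -0.24 and -0.42.

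The motif counts over the promoter windows can be read against the background. A STAT motif was in 9 of the 55 genes with a RefSeq window among the 76 that were 2-fold lower (16.4%), in 21 of 156 at 1.5-fold (13.5%), in 4 of 34 genes 1.5-fold higher (11.8%) and in 668 of 7961 measured genes (8.39%). Over all genes with a window, counted the same way, the share was 9.55%, and over single windows it was 8.3%. The 9 genes were Cish, Csrnp1, Emp1, Serpina3g, Socs3, Sytl3, Tgm1, Tnfrsf9 and Usp17ld. Of the 21 genes with a window that were 2-fold lower in both genotypes, 5 held it (23.8%). A CArG box was in 4 of the 55 (7.27%), namely Dusp5, Egr2, Fut8 and Glipr2. It was in 1.47% of measured genes, 1.81% of all genes with a window and 1.63% of single windows. The MYC-type E-box CACGTG was in 7 of the 55 (12.7%), against 12.3% of measured genes. Its share was 8.09% over all genes with a window and 7.15% over single windows. The sterol element TCACNCCAC was in 0 of the 55, in 5 of the 156 (3.21%) and in 1.36% of measured genes. Its share was 1.44% over all genes with a window and 1.24% over single windows. CACGTG, TTCNNNGAA and the CArG box read the same on both strands, and each motif was counted on its own, so a gene can be counted for more than one, as Egr2 was for the CArG box and the E-box. A match is only these letters in a window, with no binding measured here.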

How the data were processed

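RNA of 4 groups with 1 library each was freed of ribosomal RNA and sequenced by Illumina methods, per the labels' protocols. The submitters' processing notes name STAR, Cuffdiff and mm10, with no versions, and whether strand was used in counting is not stated, so overlapping and antisense genes are uncertain. The authors deposited FPKM values per gene, scaled between libraries by them in a way the sources do not state. The authors' deposited comparisons gave the q-values that were copied. Their other statistics, and 2 columns there with values of single libraries, were left aside.

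Each library was placed in its group by its title. From the FPKM values a log2 ratio with a pseudocount of 1 was computed, which understates differences of low genes, for genes whose 4 libraries averaged 1 FPKM or more, small RNAs left out. A called gene is one at 2-fold or more, and members of lists were counted at 1.5-fold. The members, the 54 gene lists and the tests were chosen with earlier results of these data known. The rule for named genes took the 20 lowest and 20 highest protein-coding genes with at least 5 FPKM in a wild-type library, list members at 1.5-fold or more, the first 4 members of each list, 12 fixed genes and the genes beside the 2-fold line. The other genes named (those 2-fold lower on no list, further list members beyond these, Nab2, Mt1, Tnfrsf8 and the copies that share a locus) were chosen after their values were seen. Depth was estimated from the steps between low FPKM values of long genes with 1 transcript: 1 FPKM on 1 kilobase is about 44.4 to 55.0 fragments, and 77.3% to 80.3% of low values held back for the check lay within 0.15 of a whole step. The 2-fold counting rule, not the depth estimate, was run on simulated libraries with known fold changes. These held only random counting error, with every gene taken as 1 kilobase long. They had no variation between libraries, so they cannot show how replicates would differ. Promoter sequences are RefSeq's, GRCm38.p6. Of the 76 genes 55 matched an entry by symbol. Gene coordinates (mm10) are as deposited. Some genes are not reported here.

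Alternatives were pseudocounts of 0.1 and 5, no filter, a filter of 5 FPKM, a filter over the 2 wild-type libraries, centring on the median, values summing to 1000000 per library, protein-coding genes alone and a 3-fold line. Python 3.11.15, numpy 2.4.6, pandas 2.3.3 and matplotlib 3.10.9 were used.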

Additional observations from a re-analysis of the deposited data

Results flagged for a closer look

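Of the 80 genes at 2-fold or more in wild type, 9 had the opposite sign in the knockout pair, and 2 of these differed by at least 1.5-fold the other way there. The difference between genotypes was not tested, since each group has 1 library. Pet117 had a log2 ratio of 1.62 in wild type against -1.88 in the knockout. Its q-value in the authors' deposited table for wild type was 0.699. Rnaset2a had a log2 ratio of -2.81 in wild type against 0.64 in the knockout, with a q-value of 0.469 in the authors' deposited table. Each shares its locus with another gene in the deposited table, Csrp2bp and Rnaset2b.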

How the results depend on the processing

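The counts at 2-fold depended on how low values were treated. With a pseudocount of 5 there were 36 genes lower and 1 higher, and with 0.1 there were 101 lower and 18 higher. A filter of 5 FPKM gave 44 and 2, and a 3-fold line 25 and 1. Rescaling each library to 1000000 gave 80 lower, of which 75 were among the 76, and 12 higher, with a median shift of 0.04 in the ratios. No filter, a filter on the wild-type libraries, centring and protein-coding genes alone gave 71 to 78 lower and 4 higher.

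Of 268 named genes, the 139 at 1.5-fold or more kept their direction under the alternatives that could be computed, and 5 of the others, all within 0.0339 of 0, changed sign. Ratios moved by 1.5-fold or more in 16 named genes with the pseudocount of 0.1, 35 with 5 and 2 (Amd1 and Rnaset2a) after rescaling. Of 47 list medians 6 changed sign under an alternative. The one of them beyond 0.1 was that of stem and multipotent progenitor markers, which went from 0.121 to -0.00294 without the filter. No paired analysis was possible because each group has 1 library and the labels give no replicate numbers. For the same reason no replicate could be left out. Depth limits genes near 1 FPKM, where 1 kilobase of transcript carries about 44.4 fragments in the wild-type control. No value given here separates the drug from the library.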
